A study of Mus musculus with 22 samples.

Results

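The mouse mitochondrial genome carries 37 annotated genes, of which 13 are translated into proteins (mRNA genes), 2 give ribosomal RNAs (rRNA genes) and 22 give transfer RNAs (tRNA genes). Every gene whose symbol starts with mt- was taken from 3 tables of normalized counts of immature B cells. This gave 35 genes, all 13 mRNA genes, both rRNA genes and 20 tRNA genes, of 29294 genes listed in at least 1 table. These few genes held a large part of the reads, with 16.5% to 18.4% of a library for experiment 1, 20.8% to 36.1% for experiment 2 and 30.2% to 35.4% for culture.

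The mitochondrial genome is a small circle that is transcribed from both strands into long RNAs, which are cut into their parts mainly at the tRNA genes that lie between the others. The mRNAs encode subunits of respiratory complexes I, III and IV and of the ATP synthase (complex V), and the rRNAs and tRNAs serve to translate them inside the organelle. All other proteins of the organelle, its RNA polymerase and ribosomal proteins included, come from nuclear genes.

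The 22 libraries were made from B220+CD93+ B cells of mouse spleen and fall into 7 groups. In experiment 1, 3 libraries came from Tcrd-GDL mice given diphtheria toxin, which the design text describes as depleted of γδ T cells, and 3 from untreated Tcrd-GDL mice. In experiment 2, 2 libraries came from depleted Tcrd-GDL mice, 3 from Tcrd-H2BeGFP mice given the same toxin (called the toxin control here) and 5 from untreated Tcrd-GDL mice. In culture, 3 libraries came from B cells of untreated Tcrd-H2BeGFP mice kept with γδ T cells and 3 from such cells kept alone. The toxin was injected into the abdomen at 15 ng per g of body weight, in 2 injections 48 hours apart, and cells were taken on day 8 after the first. The labels do not say which cells of either strain respond to the toxin, nor the age of the mice, nor whether libraries of a group came from separate animals or cultures. The p-values therefore take libraries as the unit. The toxin control differs from the untreated group in both strain and toxin, which cannot be told apart. From the depleted group it differs in strain and in depletion, which cannot be told apart either. Gene tables were scaled separately, so that levels are compared only within an experiment.

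Libraries of experiment 1 held 9794413 to 20343954 reads, those of experiment 2 held 22022330 to 36840455 and those of culture 17505909 to 28729574. All 7 B cell markers reported, Cd79a and Cd93 among them, were listed above 0 in every group. A pair of libraries stood apart. Depleted library 1 of experiment 1 held 28.7% of its reads in Gm23935, a structural RNA gene, against 16.1% to 20.4% in the other 5 libraries of that experiment. Library 3 of B cells with γδ T cells had 77843 normalized counts of mt-Co1, against 136095 to 168466 in the other 5 culture libraries. The genes singled out below for either library are given with and without it. In bulk RNA, fewer cells of a type and less RNA per cell cannot be told apart.

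The 3 tRNA genes tested in all 3 experiments, which include both tRNA genes that passed a test, are shown first, read 5′ to 3′ from the strand of each gene in GENCODE M21 transcripts (GRCm38), with the anticodon, the bases that read the codon, in capitals. The mt-Tw gene lies at chrM:4950-5016 on the plus strand, mt-Ty at chrM:5260-5326 on the minus strand and mt-Tp at chrM:15356-15422 on the minus strand. They carry tryptophan, tyrosine and proline.
mt-Tw: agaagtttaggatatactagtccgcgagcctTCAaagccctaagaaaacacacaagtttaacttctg
mt-Ty: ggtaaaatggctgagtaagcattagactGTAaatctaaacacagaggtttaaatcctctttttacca
mt-Tp: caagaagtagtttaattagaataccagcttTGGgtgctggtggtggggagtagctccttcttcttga

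Several mRNA genes could not be counted free of copies in the nuclear genome. Of the 13 mRNA genes, 9 had a pseudogene transcript of at least 95% identity over at least 100 bases. A stretch at chr1:24611535-24616197 held 7 such pseudogenes, all on the minus strand. Those of mt-Atp6 (Gm10925), mt-Co2 (Gm28661), mt-Co3 (Gm28437) and mt-Nd4l (Gm10222) matched at 100% over nearly the whole gene, Gm28439 matched the first part of mt-Nd4 at 100%, and Gm29216 matched the last part of mt-Co1 at 99.8%. Gm28438 matched mt-Nd3 at 99.7% over 345 bases, with the single substitution T3C, counted from 1 at the first base of mt-Nd3. The first 30 bases of mt-Nd3 (chrM:9459-9488, plus strand) and Gm28438 (chr1:24613090-24613119, minus strand), with the differing base in capitals, and of mt-Co3 (chrM:8607-8636, plus strand) and Gm28437 (chr1:24613942-24613971, minus strand), which do not differ, show how little separates a mitochondrial gene from its copy.
mt-Nd3: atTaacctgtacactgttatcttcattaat
Gm28438: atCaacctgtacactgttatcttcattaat
mt-Co3: atgacccaccaaactcatgcatatcacata
Gm28437: atgacccaccaaactcatgcatatcacata

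The deposited values were split between gene and copy in different ways. Gm28438 had 379 to 506 normalized counts for experiment 1, 1055 to 3165 for experiment 2 and 1472 to 2275 for culture. Its mitochondrial counterpart mt-Nd3, a subunit gene of complex I, had 0 to 6.12 normalized counts for experiment 1, 1.17 to 12.02 for experiment 2 and 13.2 to 26.0 for culture. By contrast, Gm28437 had 5.12 to 44.9 normalized counts in experiment 2, under the 72.7 to 237 of mt-Co3, a subunit gene of complex IV. The treatment of reads with several matches is not given in the sources used here. Values of mt-Co2, mt-Atp8, mt-Atp6, mt-Co3, mt-Nd3 and mt-Nd4l, 6 neighbours on the mitochondrial map, are therefore uncertain as levels. All but mt-Atp8 have such a nearly whole copy among annotated transcripts. Only these transcripts were searched, so whether nuclear DNA between them also holds a copy of mt-Atp8 was not tested. Where gene and antisense neighbour overlap, as mt-Nd5 (chrM:11742-13565, plus strand) does with mt-Nd6 (chrM:13552-14070, minus strand), reads of the overlap may also have been counted for either gene, since use of strand in counting is not given.

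The rRNAs mt-Rnr1 (12S, of the small ribosomal subunit) and mt-Rnr2 (16S, of the large one) made up 94.1% to 97.1% of mitochondrial reads in every library. Of all reads they took 15.6% to 17.5% for experiment 1, 19.6% to 35.0% for experiment 2 and 29.2% to 33.7% for culture. The 13 mRNA genes together took 0.558% to 1.02% for experiment 1, 0.977% to 1.60% for experiment 2 and 0.993% to 1.74% for culture. The tRNA genes took 0.000492% to 0.00434% of all reads over the 22 libraries, which was 49 to 1094 reads per library. Mitochondrial tRNAs are short and modified, and reads on their genes can come from precursors as well as from mature tRNA; the files do not separate these.

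In experiment 2, rRNA took 34.8% and 26.1% of all reads in the 2 depleted libraries. It took 24.5%, 19.6% and 20.7% in the toxin control and 28.2%, 32.8%, 35.0%, 34.5% and 28.6% in the untreated libraries. The toxin control libraries lay below all libraries of both other groups, and depleted and untreated libraries overlapped. The share averaged 30.5% ± 6.11 in depleted (SD, n = 2), 21.6% ± 2.58 in toxin control (SD, n = 3) and 31.8% ± 3.23 in untreated libraries (SD, n = 5). In experiment 1 it averaged 16.7% ± 0.639 in depleted and 16.5% ± 0.934 in untreated libraries (SD, n = 3 each). In culture it averaged 31.9% ± 2.38 with γδ T cells and 33.0% ± 0.588 alone (SD, n = 3 each). Neither pair separated.

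The share of the mRNA genes overlapped between all groups of an experiment except where noted. In experiment 2 it was 1.05% and 1.10% in depleted, 1.37%, 1.22% and 1.14% in toxin control and 1.07%, 0.977%, 1.10%, 1.26% and 1.60% in untreated libraries. Depleted and toxin control libraries did not overlap on this share. It averaged 1.07% ± 0.0409 in depleted (SD, n = 2), 1.24% ± 0.117 in toxin control (SD, n = 3) and 1.20% ± 0.245 in untreated libraries (SD, n = 5). In experiment 1 it averaged 0.791% ± 0.233 in depleted and 0.823% ± 0.119 in untreated libraries (SD, n = 3 each), and in culture 1.18% ± 0.165 with γδ T cells and 1.40% ± 0.294 alone (SD, n = 3 each). As a log2 difference, experiment 1 gave -0.09, and 0.14 without depleted library 1, and culture gave -0.24, and -0.12 without library 3 with γδ T cells. The log2 difference in this share was -0.21 between depleted and toxin control libraries and 0.07 between toxin control and untreated libraries. On the sum of the authors' normalized counts it turned to 0.18 and -0.29. Relative to the reads of nuclear protein-coding genes plus mitochondrial mRNA genes it was 0.11 and -0.23. Nuclear protein-coding genes took 42.0% and 48.6% of the reads of depleted, 53.8% to 59.1% of toxin control and 42.4% to 51.0% of untreated libraries.

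**Figure D1:**
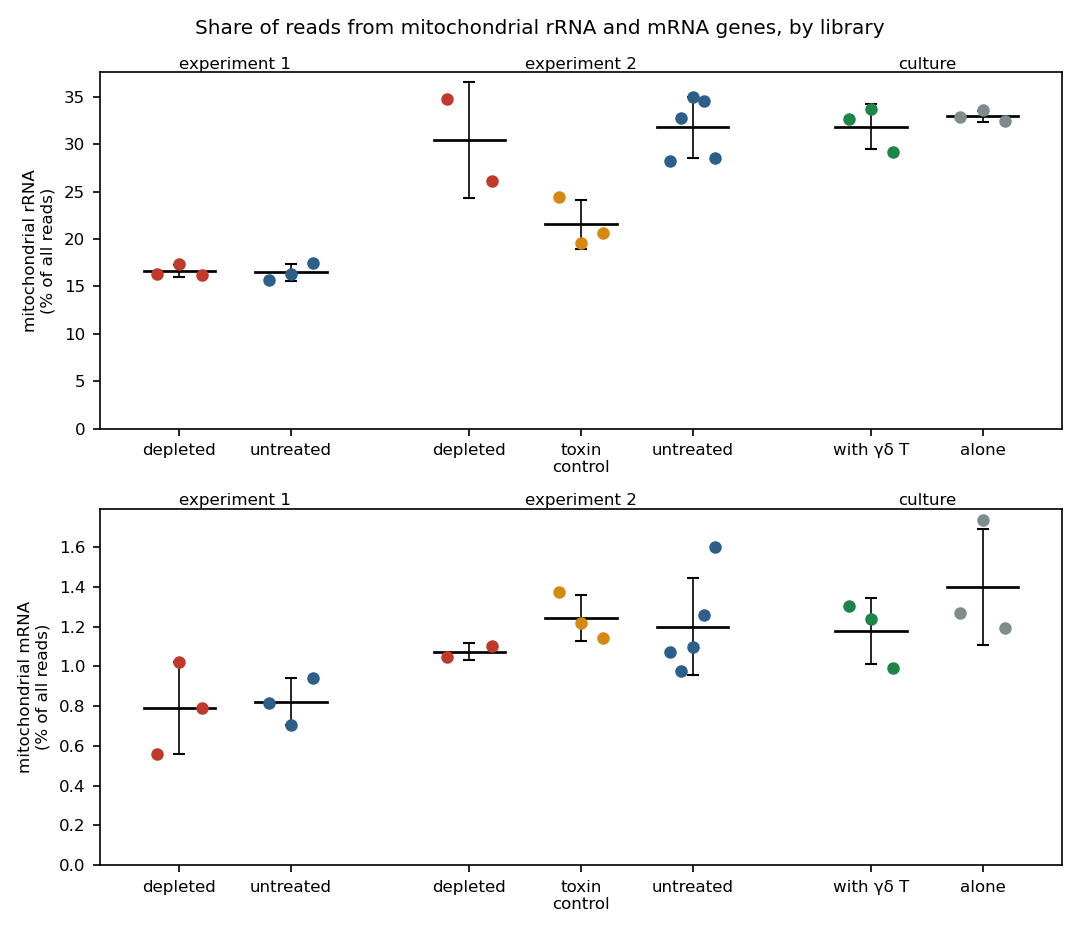
Percent of all reads of a library that fell on the 2 mitochondrial rRNA genes (one panel) and the 13 mitochondrial mRNA genes (other panel), by group of the 3 experiments. Points are libraries, bars group means and whiskers the SD; the 3 toxin control libraries sit between 19.6% and 24.5% rRNA, below all other libraries of experiment 2, while their mRNA share of 1.14% to 1.37% lies within the range of the untreated libraries.

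How much rRNA was kept in making each library was not measured here, so ratios of the 2 classes are ratios of reads only. Reads of rRNA genes per read of mRNA genes, a ratio that does not depend on the scaling of a library, sets the 2 classes side by side. It was 33.3 and 23.7 in depleted libraries of experiment 2, 17.8, 16.1 and 18.1 in toxin control libraries and 26.3, 33.5, 31.9, 27.5 and 17.9 in untreated libraries. The toxin control lay below both depleted libraries and overlapped the untreated group through untreated library 8. The log2 difference in the ratio was 0.70 between depleted and toxin control and -0.63 between toxin control and untreated libraries. In experiment 1 the ratio was 29.2, 17.0 and 20.51 in depleted and 19.2, 23.1 and 18.5 in untreated libraries, a log2 difference of 0.11 that was -0.11 without depleted library 1. In culture it was 25.1, 27.2 and 29.4 with γδ T cells and 25.9, 19.4 and 27.2 alone. Groups overlapped in both of these. Within the rRNA class, mt-Rnr2 had 2.12 to 3.47 reads per read of mt-Rnr1 over the 22 libraries.

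**Figure D2:**
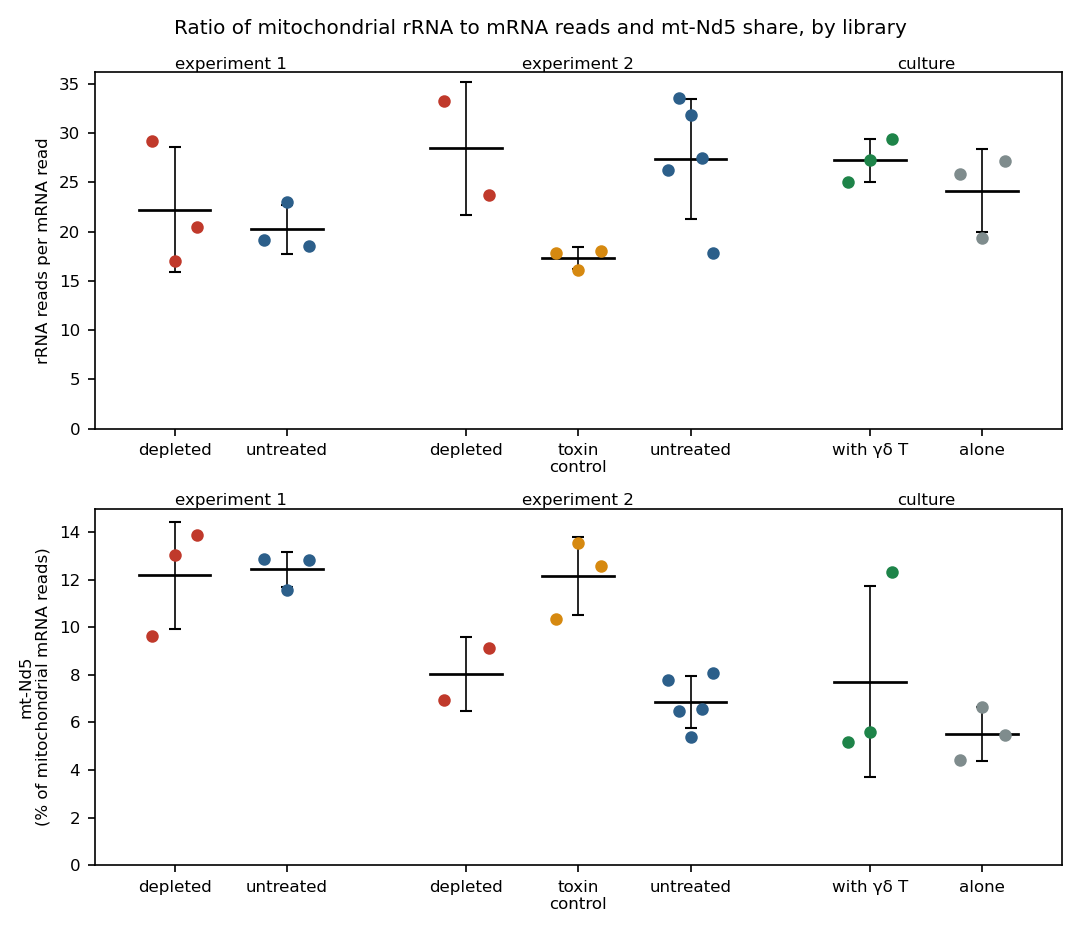
Reads of mitochondrial rRNA genes per read of mitochondrial mRNA genes (one panel) and percent of mitochondrial mRNA reads that fell on mt-Nd5 (other panel), by group; points are libraries, bars means, whiskers the SD. The toxin control libraries have ratios of 16.1 to 18.1 and mt-Nd5 percentages of 10.3 to 13.5, against 17.9 to 33.5 and 5.37 to 8.08 in untreated libraries of experiment 2.

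Levels compared between genes are given as normalized counts per kb of gene. In experiment 2 mt-Rnr2 averaged 3943100 and mt-Rnr1 2517200 normalized counts per kb over the 10 libraries, and mt-Rnr2 was above mt-Rnr1, and mt-Rnr1 above every mRNA gene, in each library of the 3 experiments. Among mRNA genes mt-Co1, the catalytic core of complex IV, was highest per kb in all libraries, with a mean of 110240 normalized counts per kb in experiment 2. The cytochrome b gene mt-Cytb of complex III followed with 56009 per kb and the complex I gene mt-Nd1 with 50625 per kb, and mt-Cytb was above mt-Nd1 in 9 of 10 libraries. In culture their order was turned, with mt-Nd1 above mt-Cytb in 6 of 6 libraries. Next per kb in experiment 2 came mt-Nd2 with 17309 and mt-Nd5 with 16158, which were not separated (mt-Nd2 was above in 6 of 10 libraries), then mt-Nd4 with 10367 and mt-Nd6 with 7327 per kb, all complex I genes. The chromosome 1 stretch matches 63.6% of mt-Nd4 and 31.3% of mt-Co1, so their levels per kb are uncertain too.

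Below these came a gap. The next gene, mt-Co3, averaged 194 normalized counts per kb in experiment 2, followed by mt-Co2 with 158, mt-Atp6 with 119 and mt-Atp8 with 48.8 per kb. The complex I genes mt-Nd4l, with 28.1, and mt-Nd3, with 21.5 per kb, were lowest and not separated from each other, mt-Nd4l being above in 4 of 10 libraries. In experiment 1 the gap lay between mt-Nd6, with 1385, and mt-Co3, with 69.3 per kb, and in culture between mt-Nd4, with 6650, and mt-Co3, with 322 per kb. The 6 genes below the gap are neighbours on the map, from mt-Co2 to mt-Nd4l. They held 0.0663% to 0.342% of mitochondrial mRNA reads over the 22 libraries, and mt-Co1, mt-Cytb, mt-Nd1, mt-Nd5, mt-Nd2, mt-Nd4 and mt-Nd6 held the rest. Among annotated transcripts, 5 of these 6 have a nearly whole copy in the chromosome 1 stretch. For mt-Nd4 and mt-Co1 only a part of the gene is matched there. The part of these copies in the low levels was not tested.

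**Figure D3:**
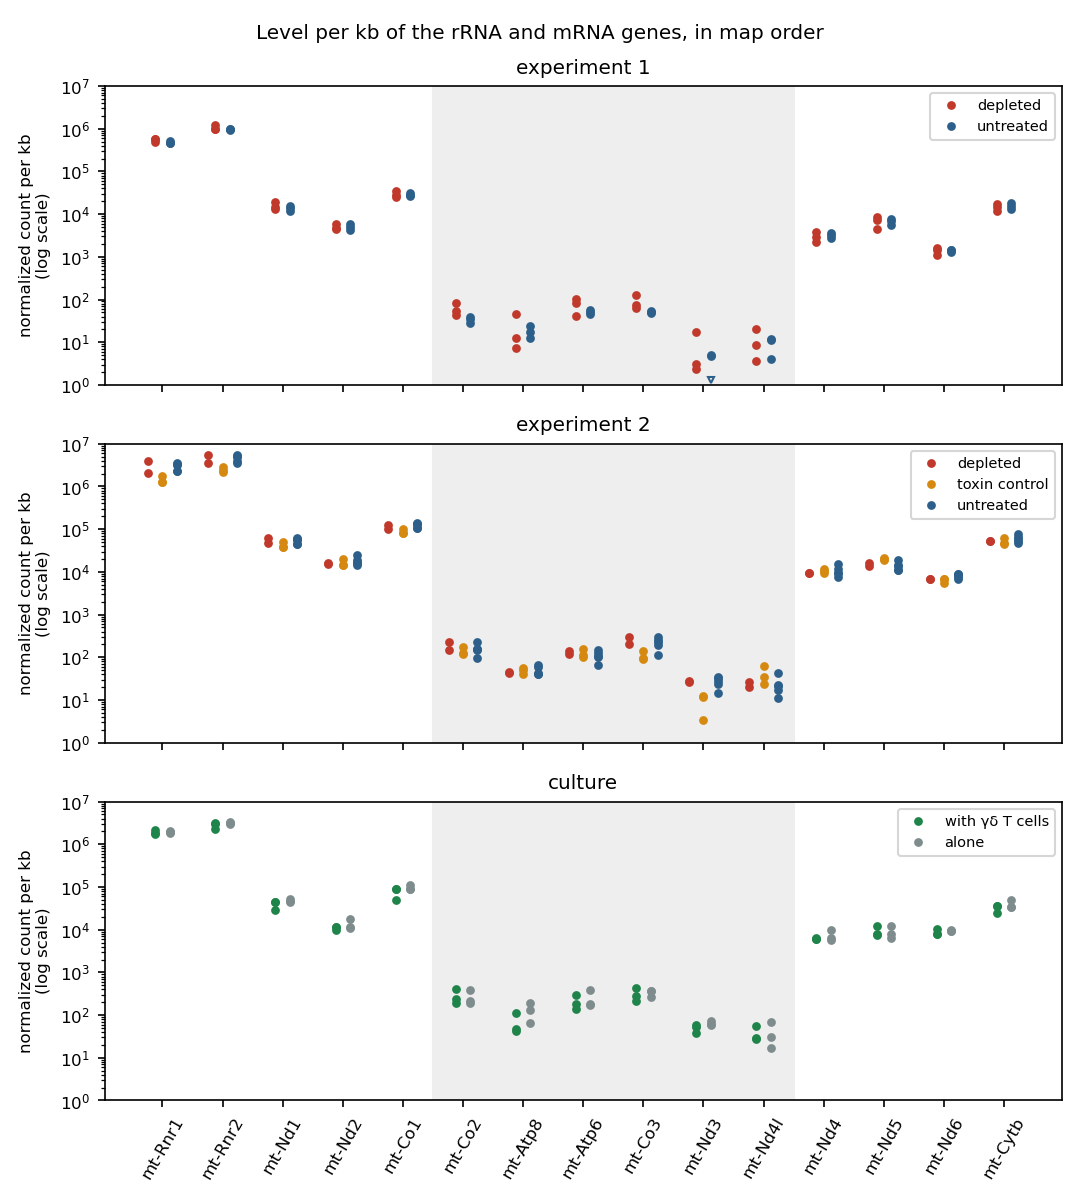
Normalized counts per kb of gene (log axis) of the 2 rRNA and 13 mRNA genes in map order, per experiment; points are libraries, open triangles libraries at 0, and the grey band marks the 6 genes from mt-Co2 to mt-Nd4l. In experiment 2 the means fall between 194 and 21.5 per kb within the band and between 110240 and 7327 per kb for the other mRNA genes.

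Of all mRNA genes mt-Co1 gave the most reads in each of the 22 libraries, at 43.1% to 53.8% of mitochondrial mRNA reads. The gene mt-Cytb gave 14.9% to 20.1% and mt-Nd1 13.1% to 17.4%. The gene mt-Nd6 is the single mRNA gene on the strand that carries 8 of the 22 tRNA genes and no rRNA gene. Its part of mitochondrial mRNA reads was 0.588% to 0.974% for experiment 1, 0.980% to 1.25% for experiment 2 and 1.48% to 2.35% for culture.

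Among tRNA genes, mt-Ty was most often counted in experiment 2, with 42.2% to 74.8% of mitochondrial tRNA reads, and in culture, with 47.5% to 67.0%. In experiment 1 it held 20.3% to 34.7%, beside 18.8% to 32.7% for mt-Tp and 13.04% to 30.4% for mt-Tw. The aspartate and glutamate tRNA genes mt-Td and mt-Te were listed but had 0 reads in all 6 libraries of experiment 1, which allows up to 3 reads in each library, and the same held for the arginine tRNA gene mt-Tr in culture. This bound covers counting error only. All tRNA genes are shorter than the 100 bases required of a copy, so the search could not find copies of them. On the map mt-Td lies between mt-Co1 and mt-Co2, and mt-Tr between mt-Nd3 and mt-Nd4l. These 4 mRNA genes have a match in the chromosome 1 stretch. Whether tRNA reads were lost to copies was not tested.

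Tests were run on log2(normalized count + 1) for genes with a table mean of at least 10 normalized counts. This filter kept 15 of the 30 mitochondrial genes listed in experiment 1, 17 of 33 in experiment 2 and 24 of 35 in culture. Among mRNA genes mt-Atp8, mt-Nd3 and mt-Nd4l fell below it in experiments 1 and 2. Differences below are log2 differences on this scale with their SE, from limma. Its p-values were adjusted by Benjamini-Hochberg across the whole table, and a change was called at an adjusted p under 0.05. The SE joins a gene's SD between libraries with a trend SD of genes of its level. For both rRNA genes the trend SD was the larger in every experiment. For mt-Rnr2 it was 0.592 against 0.129 in experiment 1, 1.47 against 0.275 in experiment 2 and 0.867 against 0.197 in culture. Their SEs and limma p-values are therefore larger than their own spread would give.

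In experiment 1, no mitochondrial gene passed the test between depleted and untreated libraries (0 of 15, with 0% of all 11701 genes called by limma). Of these 15, 0 were called by edgeR or by DESeq2, beside 0 and 27 of all 11701 genes. At an unadjusted p under 0.05 (limma) there were 2 of 15, beside 1033 of all genes. These 2, mt-Co2 and mt-Co3, were also the ones whose groups did not overlap (2 of 15, beside 15.2% of all genes). Normalized counts of mt-Co3 were 99.4, 57.9 and 48.9 in depleted and 41.2, 38.8 and 39.8 in untreated libraries. Those of mt-Co2 were 29.1, 57.9 and 36.2 in depleted and 19.7, 24.2 and 26.3 in untreated libraries. The log2 differences were 0.70 ± 0.27 for mt-Co3 (adjusted p = 0.531, limma) and 0.74 ± 0.31 for mt-Co2 (adjusted p = 0.550, limma). Both have a nuclear copy at 100%, and the highest mt-Co3 value is that of depleted library 1. Without that library the log2 differences were 0.41 ± 0.25 for mt-Co3 (adjusted p = 0.33, limma) and 0.95 ± 0.32 for mt-Co2 (adjusted p = 0.0646, limma).

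The rRNA genes of experiment 1 differed by 0.17 ± 0.25 (mt-Rnr1) and 0.12 ± 0.38 (mt-Rnr2) on the log2 scale. In normalized counts mt-Rnr1 had 552254, 534149 and 474341 in depleted and 444929, 440206 and 505091 in untreated libraries, so that the groups overlapped. The 5 complex I genes tested lay between -0.14 (mt-Nd4) and 0.16 (mt-Nd1), with mt-Nd2 at 0.03, mt-Nd5 at -0.02 and mt-Nd6 at -0.04. The remaining mRNA genes tested were mt-Cytb at -0.08, mt-Co1 at 0.05 and mt-Atp6, a channel subunit gene of the ATP synthase, at 0.46. The 3 tRNA genes tested were mt-Tp at 0.10, mt-Ty at -0.15 and mt-Tw at -0.33. Without depleted library 1, mt-Nd5 was at 0.27, mt-Nd4 at 0.06 and mt-Cytb at 0.05, each with the sign turned, and mt-Nd6 at -0.15. Median log2 differences were 0.04 for the 10 mRNA genes, 0.14 for the rRNA genes and -0.15 for the tRNA genes, beside -0.01 for all genes tested. The summed plasma cell markers, 2 of 3 of which were listed, were 218 to 289 normalized counts in depleted and 476 to 516 in untreated libraries. The nuclear RNA Malat1 took 0.678% to 0.771% of reads in depleted and 0.952% to 1.11% in untreated libraries. The part of both in these values was not tested.

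In experiment 2, no mitochondrial gene passed between depleted and untreated libraries either (0 of 17, beside 0.299% of all genes called by limma). None had an unadjusted p under 0.05 (limma), beside 1309 of all 13364 genes, and 0 were called by edgeR or by DESeq2, beside 51 and 138 of all genes. The 2 groups overlapped for all 17 (12.3% of all genes did not overlap). The rRNA genes differed by -0.02 ± 0.60 (mt-Rnr1) and -0.05 ± 0.95 (mt-Rnr2) on the log2 scale. In normalized counts mt-Rnr1 had 3738065 and 2028210 in depleted and 2248941, 3023628, 3418373, 3285318 and 2193679 in untreated libraries, so that 1 depleted library lay above all untreated libraries and the other below. Of the mRNA genes, mt-Nd6 had the smallest p, with 3603 and 3501 normalized counts in depleted and 3570, 3858, 4673, 4592 and 4388 in untreated libraries, a log2 difference of -0.24 ± 0.12 (adjusted p = 0.518, limma). The others were mt-Nd2 at -0.18, mt-Cytb at -0.16, mt-Nd4 at -0.14, mt-Co1 at -0.14, mt-Nd1 at 0.00, mt-Nd5 at 0.12, mt-Co2 at 0.24, mt-Co3 at 0.25 and mt-Atp6 at 0.26. Median log2 differences were -0.07 for mRNA, -0.03 for rRNA and 0.33 for the 5 tRNA genes tested. These tRNA genes were mt-Tv at 0.86 ± 0.80, mt-Tp at 0.37, mt-Tt at 0.33, mt-Ty at -0.12 and mt-Tw at -0.30.

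Between toxin control and untreated libraries 5 of 17 mitochondrial genes passed (limma; 15.7% of all genes did). One was higher (7.32% of all genes were): mt-Nd5, a proton-pumping subunit gene of complex I. The other 4 were lower (8.34% of all genes were): mt-Ty, mt-Tw, mt-Co3 and mt-Nd6. Groups did not overlap for 7 of 17 genes (41.2%), beside 23.4% of all genes.

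In normalized counts mt-Nd5 had 36453, 38720 and 35445 in toxin control and 25522, 20510, 20463, 27063 and 35433 in untreated libraries. All 3 toxin control libraries were above the untreated ones, but untreated library 8 was almost at their level. The log2 difference was 0.55 ± 0.15 (adjusted p = 0.0249, limma). As a percent of mitochondrial mRNA reads, mt-Nd5 made up 10.3%, 13.5% and 12.6% in toxin control libraries, against 7.79%, 6.48%, 5.37%, 6.57% and 8.08% in untreated libraries, which did not overlap. It was higher under each scaling tried, between 0.55 and 0.88 on the log2 scale. The call was lost without toxin control library 1 (0.55, adjusted p = 0.0559, limma), 2 (0.51, adjusted p = 0.118, limma) or 3 (0.57, adjusted p = 0.067, limma). It was also lost without untreated library 5 (0.47, adjusted p = 0.0631, limma) or 6 (0.47, adjusted p = 0.0659, limma), and in a limma fit without a trend (adjusted p = 0.0904).

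The neighbouring gene on the other strand, mt-Nd6, went the other way in normalized counts. It had 3461, 2859 and 3520 normalized counts in toxin control and 3570, 3858, 4673, 4592 and 4388 in untreated libraries, with toxin control library 3 just below untreated library 4. The log2 difference was -0.36 ± 0.10 (adjusted p = 0.0257, limma). Scaled to the library total without structural RNA genes, it was -0.02 (adjusted p = 0.894, limma), and scaled to all nuclear genes -0.21 (adjusted p = 0.186, limma). Those scalings moved the median of all genes tested to 0.34 and 0.15. Of mitochondrial mRNA reads, mt-Nd6 made up 0.982%, 1.00% and 1.25% in toxin control and 1.09%, 1.22%, 1.23%, 1.12% and 1.00% in untreated libraries. On this measure the groups overlapped. The call was also lost without toxin control library 2 (-0.26, adjusted p = 0.166, limma), untreated library 6 (-0.32, adjusted p = 0.0682, limma) or untreated library 7 (-0.33, adjusted p = 0.0648, limma), and in a limma fit without a trend (adjusted p = 0.093).

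Normalized counts of mt-Co3 were 113, 72.7 and 74.7 in toxin control and 88.7, 183, 237, 203 and 149 in untreated libraries. The groups overlapped through untreated library 4. The log2 difference was -0.94 ± 0.27 (adjusted p = 0.0294, limma). Scaled to the library total without structural RNA genes it was -0.60 (adjusted p = 0.0623, limma), and without a trend the adjusted p was 0.0967 (limma). The call was lost without toxin control library 2 (-0.82, adjusted p = 0.145, limma) or 3 (-0.84, adjusted p = 0.109, limma) and without untreated library 5, 6 or 7 (-0.80 to -0.89, adjusted p = 0.0618 to 0.0783, limma). Untreated library 4 was also the lowest untreated library for mt-Co2 and mt-Atp6, at 66.3 and 45.6 normalized counts. In the toxin control mt-Co2 had 119, 81.9 and 85.3 and mt-Atp6 106, 69.6 and 77.5 normalized counts.

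The tRNA genes mt-Tw and mt-Ty, whose sequences are given above, were lower in the toxin control. Normalized counts of mt-Tw were 25.6, 14.3 and 14.1 in toxin control, from 22, 14 and 20 reads, and 43.1, 46.9, 48.6, 46.8 and 33.6 in untreated libraries. The difference of -1.28 ± 0.30 (log2; adjusted p = 0.0124, limma) came with groups apart. It was -1.15 without toxin control library 2 (adjusted p = 0.081, limma) and -1.14 without library 3 (adjusted p = 0.0589, limma). Normalized counts of mt-Ty were 190, 69.6 and 223 in toxin control and 459, 223, 533, 398 and 424 in untreated libraries, with toxin control library 3 and untreated library 5 nearly equal. The log2 difference was -1.44 ± 0.33 (adjusted p = 0.0106, limma). Without toxin control library 2, where mt-Ty was lowest, it was -0.93 (adjusted p = 0.0813, limma), and without a trend the adjusted p was 0.0734 (limma). Both genes were lower under each scaling tried, between -0.95 and -1.34 for mt-Tw and between -1.11 and -1.44 for mt-Ty. The other 3 tRNA genes tested did not pass: mt-Tp at -0.74 ± 0.29 (adjusted p = 0.0889, limma), mt-Tt, the threonine tRNA gene, at -0.69 and mt-Tv, the valine tRNA gene, at -0.65.

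For both rRNA genes all 3 toxin control libraries lay below all untreated libraries, without passing the limma test. In normalized counts mt-Rnr1 had 1681967, 1193870 and 1227636 in toxin control and 2248941, 3023628, 3418373, 3285318 and 2193679 in untreated libraries. Its log2 difference was -1.04 ± 0.53 (adjusted p = 0.187, limma; 0.0171 with edgeR and 0.00113 with DESeq2). In normalized counts mt-Rnr2 had 4605070, 3411878 and 3866436 in toxin control and 6369875, 7588414, 8731109, 8022112 and 5642638 in untreated libraries. Its log2 difference was -0.87 ± 0.83 (adjusted p = 0.502, limma; 0.0374 with edgeR and 2.2e-06 with DESeq2). The SD between libraries of a group was 0.361 for mt-Rnr1 and 0.275 for mt-Rnr2 on the log2 scale, while limma's trend over all genes set prior SDs of 0.902 and 1.47 for genes of their level. Without that trend the adjusted p was 0.0557 for mt-Rnr1 and 0.0517 for mt-Rnr2 (limma). Scaled to the total without structural RNA genes the differences were -0.71 for mt-Rnr1 (adjusted p = 0.0436, limma) and -0.53 for mt-Rnr2. Quantile normalization, which gives genes of the same rank equal values in all libraries, left 0.00 for both.

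Of the remaining mRNA genes, mt-Co1 had no overlap between the groups. It had 158393, 123422 and 126147 normalized counts in toxin control and 164947, 168424, 201982, 210229 and 205288 in untreated libraries. The log2 difference was -0.49 ± 0.18 (adjusted p = 0.0730, limma; 0.0382 with edgeR), and -0.15 when scaled to the library total without structural RNA genes (adjusted p = 0.469, limma). Of mitochondrial mRNA reads, mt-Co1 took 45.0%, 43.1% and 44.8% in toxin control and 50.3%, 53.2%, 53.0%, 51.0% and 46.8% in untreated libraries. These did not overlap either. The other remaining mRNA genes overlapped between groups in normalized counts, with mt-Nd1 at -0.33, mt-Cytb at -0.24, mt-Nd2 at -0.16, mt-Co2 at -0.15, mt-Nd4 at 0.02 and mt-Atp6 at 0.18. Scaled to the library total without structural RNA genes, mt-Nd1, mt-Cytb, mt-Nd2 and mt-Co2 had values between 0.00 and 0.18, so their direction depends on the scaling. Median log2 differences were -0.20 for the 10 mRNA genes, -0.96 for the rRNA genes and -0.74 for the tRNA genes, beside 0.00 for all genes tested.

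The share of nuclear protein-coding reads separated the groups, and the other measures that follow overlapped between them. It averaged 56.4% ± 2.64 in toxin control (SD, n = 3) and 45.9% ± 3.47 in untreated libraries (SD, n = 5). Malat1, a nuclear RNA, took 1.62% to 1.91% of reads in toxin control and 1.14% to 1.71% in untreated libraries. Summed T cell markers, 7 of 8 of which were listed, were 950 to 1552 normalized counts in toxin control and 516 to 1266 in untreated libraries. Summed macrophage and monocyte markers, 4 of 5 listed, were 779 to 1124 and summed NK cell markers, 4 of 4 listed, 197 to 312 in toxin control, against 353 to 1138 and 70.8 to 341 in untreated libraries. Summed erythroid markers, 3 of 3 listed, were 170 to 1139 in toxin control and 598 to 1714 in untreated libraries. No listed marker of these types was at 0 throughout a group. B cell markers summed to 136705 to 138121 in toxin control and 126351 to 148750 in untreated libraries. The part of these in the mitochondrial values was not tested.

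**Figure D4:**
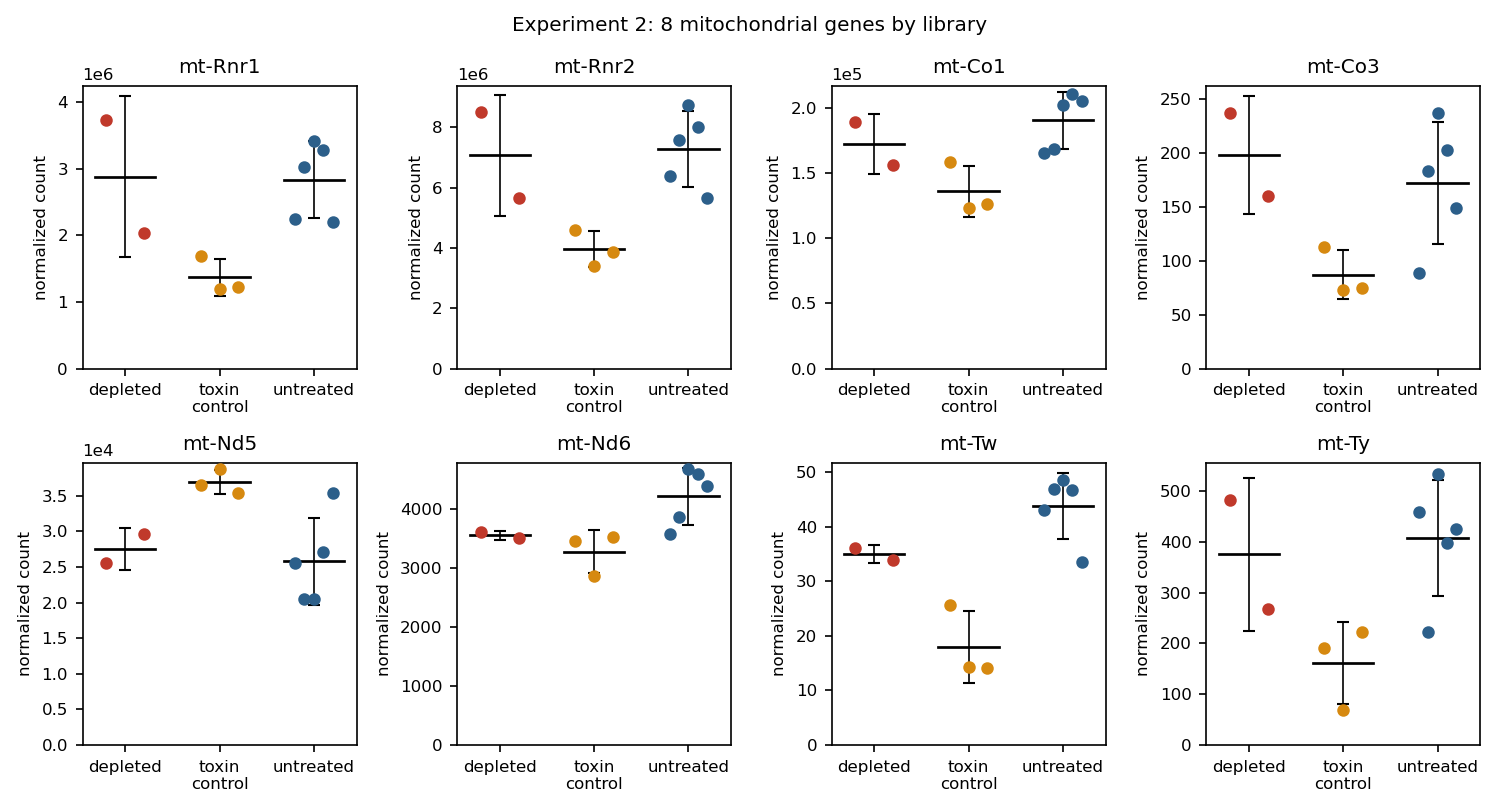
Normalized counts of 8 mitochondrial genes in each library of experiment 2, by group; points are libraries, bars group means and whiskers the SD. The toxin control libraries lie below both other groups for mt-Rnr1, mt-Rnr2 and mt-Tw, and above both for mt-Nd5, with 35445 to 38720 normalized counts against 25500 and 29615 in depleted and 20463 to 35433 in untreated libraries.

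Depleted and toxin control libraries of experiment 2 both came from mice given toxin, and the comparison shares its toxin control libraries with the one above, so that its values are not independent of it. Of 17 mitochondrial genes 1 passed, beside 9.07% of all genes: mt-Co3, which was higher, as 4.58% of all genes were. It had 237 and 160 normalized counts in depleted and 113, 72.7 and 74.7 in toxin control libraries, with no overlap, and a log2 difference of 1.18 ± 0.34 (adjusted p = 0.0397, limma). The call was lost without depleted library 4 (0.90, adjusted p = 0.439, limma), toxin control library 2 (1.07, adjusted p = 0.132, limma) or toxin control library 3 (1.09, adjusted p = 0.106, limma). It was also lost with no filter on low values (adjusted p = 0.0586, limma), without a trend (adjusted p = 0.129, limma), and scaled to all nuclear genes (adjusted p = 0.0532, limma) or to the total without structural RNA genes (adjusted p = 0.0538, limma). Groups did not overlap for 7 of 17 genes (41.2%), close to the 42.1% of all genes.

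For both rRNA genes the 2 depleted libraries lay above all 3 of the toxin control, without passing. In normalized counts mt-Rnr2 had 8491947 and 5649919 in depleted and 4605070, 3411878 and 3866436 in toxin control libraries, a log2 difference of 0.82 ± 1.03 (adjusted p = 0.643, limma; 0.106 with edgeR and 0.00048 with DESeq2). That of mt-Rnr1 was 1.03 ± 0.66 (adjusted p = 0.332, limma; 0.0442 with edgeR and 0.0125 with DESeq2). The tRNA gene mt-Ty had 481 and 268 normalized counts in depleted and 190, 69.6 and 223 in toxin control libraries, with a log2 difference of 1.32 ± 0.41 (adjusted p = 0.0521, limma). The tRNA gene mt-Tp had 107 and 121 in depleted and 65.3, 34.8 and 62.7 in toxin control libraries, with a log2 difference of 1.11 ± 0.36 (adjusted p = 0.0621, limma; 0.0711 with edgeR and 0.0335 with DESeq2). For mt-Tw it was 0.97 ± 0.38, with 36.2 and 33.8 normalized counts in depleted libraries, above all 3 of the toxin control. The groups overlapped for mt-Tv, at 1.51 ± 0.88 (adjusted p = 0.282, limma), and mt-Tt, at 1.02 ± 0.57 (adjusted p = 0.261, limma). Normalized counts of mt-Tv were 37.3 and 9.33 in depleted and 2.33, 4.10 and 19.0 in toxin control libraries.

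No complex I gene passed. For mt-Nd5, depleted libraries had 25500 and 29615 and toxin control libraries 36453, 38720 and 35445 normalized counts, which did not overlap, with a log2 difference of -0.42 ± 0.19 (adjusted p = 0.163, limma; -0.75 and adjusted p = 0.0442 when scaled to the total without structural RNA genes, which moved the median of all genes tested to -0.33). The difference was 0.34 for mt-Nd1, 0.12 for mt-Nd6, -0.02 for mt-Nd2 and -0.16 for mt-Nd4. For the other mRNA genes it was 0.39 for mt-Co2, 0.34 for mt-Co1, 0.08 for mt-Cytb and 0.08 for mt-Atp6. On that scaling mt-Nd6 was at -0.21 and mt-Cytb and mt-Atp6 at -0.25, so their direction depends on it. Median log2 differences were 0.10 for mRNA, 0.92 for rRNA and 1.11 for tRNA genes, beside 0.00 for all genes. In depleted libraries summed T cell markers were 589 to 728 and NK cell markers 39.5 to 145 normalized counts. Macrophage and monocyte markers were 295 to 493.3, and all of these lay below the toxin control. Dendritic cell markers, 4 of 4 listed, were 222 to 409 in depleted and 126 to 159 in toxin control libraries. Erythroid markers, 3 of 3 listed, were 227 to 3410 in depleted and 170 to 1139 in toxin control libraries, which overlapped. Malat1 took 0.648% and 1.15% of reads in depleted and 1.62% to 1.91% in toxin control libraries. The part of these measures in the mitochondrial values was not tested.

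In culture, where the question is whether B cells kept with γδ T cells differ from B cells kept alone, no mitochondrial gene passed (0 of 24, beside 2.16% of all genes called by limma). One, the valine tRNA gene mt-Tv, had an unadjusted p under 0.05 (limma), beside 1563 of all 12386 genes. By edgeR or by DESeq2 0 were called, beside 237 and 399 of all genes. The genes whose groups stood apart were mt-Nd1, mt-Nd3 and the methionine tRNA gene mt-Tm (3 of 24, 12.5%, beside 18.4% of all genes). In normalized counts mt-Nd1 had 43071, 42576 and 27631 with γδ T cells and 44938, 50659 and 43433 alone. The log2 difference was -0.32 ± 0.20 (adjusted p = 0.561, limma), and the lowest value is that of library 3. Without library 3 it was -0.11 ± 0.14 (adjusted p = 0.751, limma). The difference was -0.39 ± 0.33 for mt-Nd3 and -0.63 ± 0.42 for mt-Tm, which had 9.72, 9.62 and 7.02 normalized counts with γδ T cells and 15.0, 13.4 and 13.7 alone. These differences became -0.21 ± 0.37 for mt-Nd3 and -0.49 ± 0.48 for mt-Tm without library 3.

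The rRNA genes in culture lay at 0.01 ± 0.43 (mt-Rnr1) and -0.16 ± 0.59 (mt-Rnr2) on the log2 scale. In normalized counts mt-Rnr1 had 1762284, 2078175 and 1678713 with γδ T cells and 1719132, 1811444 and 1949700 alone, which overlapped. Of the other mRNA genes, mt-Co1 was at -0.38, mt-Cytb at -0.30, mt-Nd2 at -0.25, mt-Atp6 at -0.23, mt-Nd4 at -0.18, mt-Co3 at -0.17, mt-Nd6 at -0.11, mt-Nd4l at 0.07, mt-Nd5 at 0.09 and mt-Co2 at 0.10. Without library 3 with γδ T cells, mt-Co1 was at -0.10 ± 0.21 (adjusted p = 0.855, limma), and the sign turned for mt-Nd5, at -0.13, mt-Co3, at 0.08, and mt-Atp6, at 0.01. The small ATP synthase subunit gene mt-Atp8 was at -0.88 ± 0.48, with 23.3, 9.62 and 8.77 normalized counts with γδ T cells and 13.1, 38.5 and 27.4 alone. Its difference became -0.64 ± 0.49 without library 3. Median log2 differences were -0.23 for mRNA, -0.08 for rRNA and -0.19 for tRNA genes, beside -0.00 for all genes. As a percent of mitochondrial mRNA reads, mt-Nd5 made up 5.19%, 5.60% and 12.4% with γδ T cells and 4.40%, 6.65% and 5.48% alone, so that library 3 with γδ T cells stood apart from the other 5. The 9 tRNA genes tested were, beside mt-Tm, mt-Tf (phenylalanine) at -1.33 ± 0.64, mt-Tv at -1.17 ± 0.52, mt-Tt at -0.22, mt-Ty at -0.19, mt-Tq (glutamine) at -0.04, mt-Tw at -0.03, mt-Ti (isoleucine) at 0.11 and mt-Tp at 0.13 on the log2 scale. Without library 3 mt-Tf was at -0.80 and mt-Tv at -0.62. The summed plasma cell markers, 2 of 3 listed, were 263 to 336 normalized counts with γδ T cells and 620 to 740 alone, and the summed T cell markers, 7 of 8 listed, 590 to 827 with γδ T cells and 470 to 532 alone. Their part in these values was not tested.

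**Figure D5:**
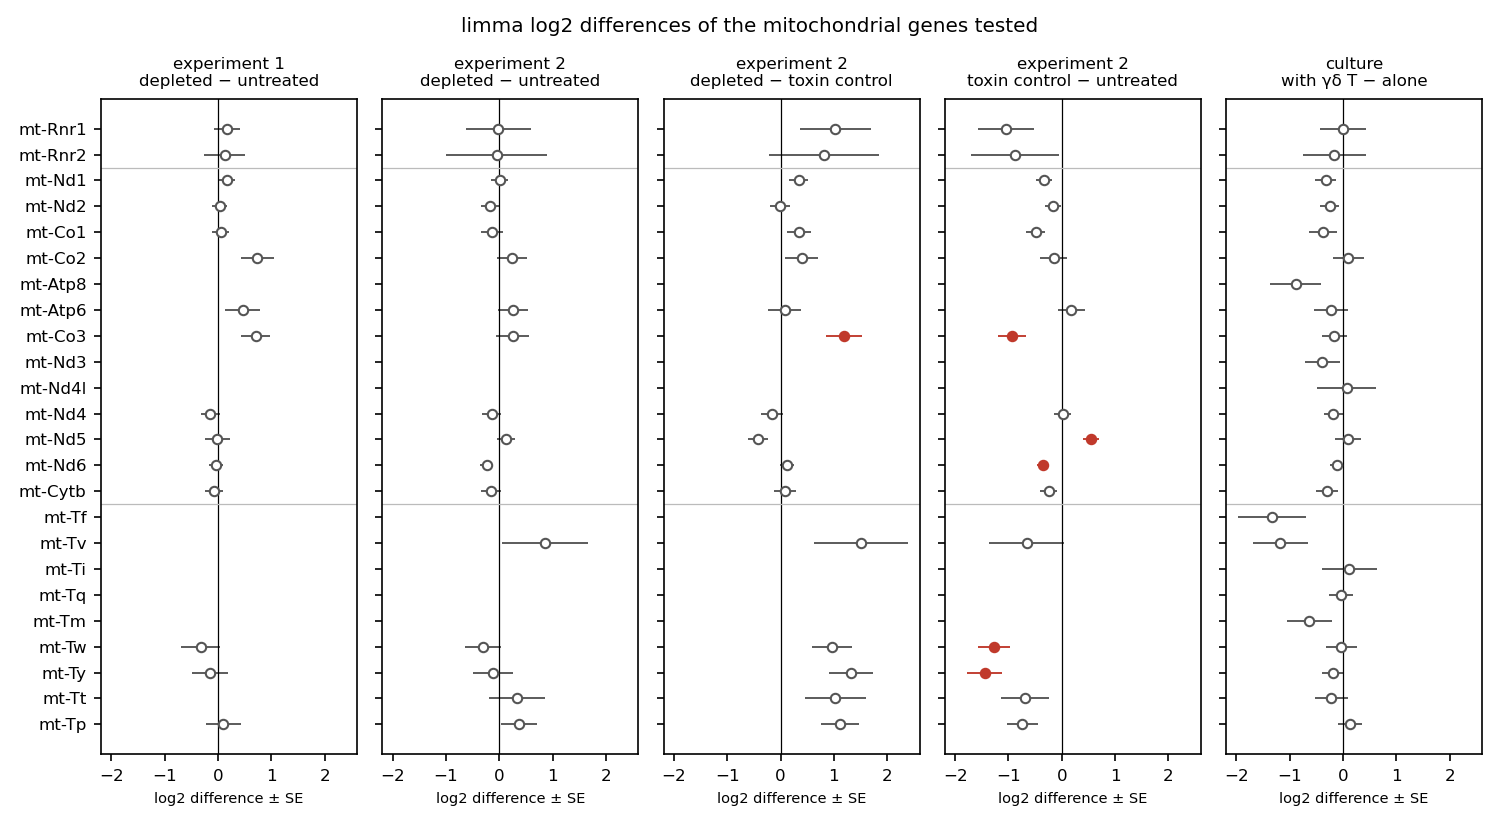
Log2 difference (first group minus second, limma on log2(normalized count + 1), whiskers the SE) of the mitochondrial genes tested in each of the 5 comparisons; filled red points passed an adjusted p under 0.05. Of the 5 that passed between toxin control and untreated libraries, mt-Nd5 lies at 0.55 and mt-Nd6, mt-Co3, mt-Tw and mt-Ty between -0.36 and -1.44, and 1, mt-Co3 at 1.18, passed between depleted and toxin control libraries.

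Nuclear genes that serve the mitochondrial genome were read beside its own genes. Between toxin control and untreated libraries, 53 of 85 nuclear genes of oxidative phosphorylation were lower and 0 higher, with a median log2 difference of -0.43. Of 76 mitochondrial ribosomal protein genes 25 were lower and 0 higher (median -0.31), and of 30 genes for processing, stability and decay of mitochondrial RNA 6 were lower and 0 higher (median -0.19). Of 25 genes for mitochondrial transcription and DNA maintenance 1 was higher and 2 lower (median -0.18). Over all genes tested 8.34% were lower and 7.32% higher, and the median was 0.00.

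These counts depended on single libraries. Without toxin control library 2, 7 oxidative phosphorylation genes, 2 ribosomal protein genes, 1 RNA processing gene and 0 transcription and maintenance genes were lower, with medians of -0.38, -0.24, -0.20 and -0.19 (limma); over all genes 0.898% were then lower. Without toxin control library 3 the lower genes were 30, 6, 1 and 0 in the same order of lists, beside 3.62% of all genes. Leaving out untreated library 4, 5, 6 or 7 gave 37 to 44 oxidative phosphorylation and 9 to 14 ribosomal protein genes, beside 4.13% to 5.88% of all genes, and leaving out untreated library 8 gave 64 and 38, beside 11.8%. They also depended on scaling. With the library total without structural RNA genes as the base, 2 oxidative phosphorylation genes were higher and 2 lower (median -0.09, with 32.4% of all genes higher, 1.23% lower and their median at 0.34), and the median of the ribosomal protein genes was 0.03.

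Tfam, which packs mitochondrial DNA and starts its transcription, averaged 1917 ± 135 normalized counts in toxin control and 2431 ± 240 in untreated libraries (SD, n = 3 and 5), a log2 difference of -0.34 ± 0.10 (adjusted p = 0.0271, limma). Nrf1, a transcription factor for nuclear genes of the organelle, was higher, with 1647 ± 67.3 normalized counts in toxin control and 1361 ± 79.7 in untreated libraries and a log2 difference of 0.28 ± 0.08 (adjusted p = 0.0331, limma). Trmt10c, a subunit of the enzyme that cuts the 5′ ends of mitochondrial tRNAs, was lower, with 730 ± 119 in toxin control and 1025 ± 92.0 in untreated libraries (log2 difference -0.50 ± 0.11, adjusted p = 0.0114, limma). Pnpt1, an RNA-degrading enzyme, was lower at -0.44 ± 0.10 (adjusted p = 0.0135, limma). Atp5g2, of the ATP synthase ring, had 453 ± 23.4 normalized counts in toxin control and 700 ± 54.6 in untreated libraries, a log2 difference of -0.62 ± 0.10 (adjusted p = 0.00299, limma). The mitochondrial ribosomal protein genes Mrpl24 and Mrpl20 differed by -0.69 ± 0.11 and -0.64 ± 0.12 (adjusted p = 0.00315 and 0.0058, limma). The call of Tfam was lost without toxin control library 2 or 3, where no transcription and maintenance gene was lower. Scaling to the total without structural RNA genes moved the median of all genes tested to 0.34. Values of the genes named here under that scaling are not given.

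Between depleted and toxin control libraries, 22 of 85 oxidative phosphorylation genes, 6 of 76 ribosomal protein genes and 1 of 25 transcription and maintenance genes were higher, with 0 lower in each of the 3 lists (limma). Their medians were 0.38, 0.28 and 0.17. Over all genes 4.58% were higher, near the share of the last of these lists. Of the 30 RNA processing genes limma called 0, with 7 at an unadjusted p under 0.05 and a median of 0.21, edgeR called 1 and DESeq2 4. Of all 13364 genes, 3592 had an unadjusted p under 0.05 (limma), and edgeR called 1189 and DESeq2 1763. The share of this list was near or below that of all genes each time. The maintenance gene was Rnaseh1, which removes RNA paired with DNA, with 375 ± 33.2 normalized counts in depleted and 254 ± 14.6 in toxin control libraries (SD, n = 2 and 3) and a log2 difference of 0.56 ± 0.15 (adjusted p = 0.034, limma). Of the oxidative phosphorylation genes 0 passed without depleted library 4, 1 without toxin control library 2 and 6 without toxin control library 3, and of the ribosomal protein genes 0, 0 and 1, beside 0.292%, 1.77% and 4.12% of all genes called. Without depleted library 5, 29 and 14 of them were higher and 1 of each lower, beside 9.73% of all genes higher. With the library total without structural RNA genes as the base 0 oxidative phosphorylation genes passed, with a median of 0.05 beside -0.33 for all genes.

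Between depleted and untreated libraries of either experiment, and in culture, limma, edgeR and DESeq2 called 0 genes of these 4 lists, and 1 to 8 genes of a list had an unadjusted p under 0.05 (limma). Over all genes 1033 of 11701 had such a p in experiment 1, 1309 of 13364 in experiment 2 and 1563 of 12386 in culture. Without depleted library 1 of experiment 1, limma called 4 oxidative phosphorylation, 4 ribosomal protein and 1 maintenance gene lower in depleted libraries, beside 5.28% of all genes, which is near the share of each list. Without library 3 with γδ T cells, 2 oxidative phosphorylation, 2 ribosomal protein and 1 RNA processing gene were higher with γδ T cells, beside 2.21% of all genes, again near the share of each list. Without depleted library 5 of experiment 2, 1 ribosomal protein gene was lower in depleted libraries, beside 2.64% of all genes. No mitochondrial gene passed in these 3 comparisons with any 1 library left out.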

How the data were processed

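RNA of B220+CD93+ spleen B cells was made into stranded total RNA libraries, per the labels' protocols. The submitters' processing notes name bcl2fastq, STAR 2.5.2b and the mm10 build. For the counting step, its use of strand and reads with several matches nothing is given in the sources used here. As deposited, the signal values are the authors' normalized counts per gene in 3 tables, each scaled separately; all values were whole reads divided by 1 factor per library, within a tolerance of 0.01, so shares were taken from recovered reads. No column was left unused. Differences were tested on log2(normalized count + 1) with limma 3.58.1 (with a trend and Benjamini-Hochberg adjustment, all groups of a table in 1 fit) in R 4.3.3, where a gene's table mean reached 10. The alternatives used edgeR 4.0.16 and DESeq2 1.42.0 on recovered reads. Scripts were tested on simulated data. Nuclear copies were found with blastn 2.17.0 between GENCODE M21 transcripts (GRCm38). The 13 mRNA and 2 rRNA genes were named in each comparison where tested, as were tRNA genes with a mean of at least 10, and of each nuclear list up to 2 genes with the smallest p among those that passed. Other scalings, pseudocounts, filters and single libraries left out served as alternatives. The members and lists were chosen with earlier results of these data known. One B cell marker of the list is not reported here.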

Additional observations from a re-analysis of the deposited data

How the results depend on the processing

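With all 17 mitochondrial genes of experiment 2 tested, the calls rested on single libraries and on the tool. Between depleted and toxin control libraries 1 gene passed. It became 0 with no filter on low values, with the total of nuclear genes as the base and in limma without a trend (the last chosen after seeing the data). There were 2 with quantile normalization or edgeR, 4 with DESeq2, and 0 or 1 with 1 toxin control library left out. Of all 13364 genes, 1212 passed in the main fit, 2261 with the total of nuclear genes and 94 without a trend. Quantile normalization gave 1005, edgeR 1189 and DESeq2 1763. With no filter 725 of 25398 passed, and with 1 toxin control library left out 1.77% to 7.14% of all genes. Between toxin control and untreated libraries 5 passed. There were 1 in limma without a trend, 8 with edgeR or with DESeq2, and 0 to 6 with 1 library left out, 0 without toxin control library 2. Of all 13364 genes, 2093 passed in the main fit, 214 without a trend, 2101 with edgeR and 2615 with DESeq2. With 1 library left out 1.47% to 22.4% of all genes passed, 1.47% without toxin control library 2. The log2 difference in the mRNA share was -0.21 between depleted and toxin control libraries, and 0.18 on normalized counts or 0.11 relative to nuclear protein-coding plus mitochondrial mRNA reads. Between toxin control and untreated libraries it was 0.07, against -0.29 and -0.23. The log2 difference in the rRNA to mRNA ratio between depleted and toxin control libraries was 0.45 to 0.94 with 1 library left out. The cause of these changes was not tested. In the 3 other comparisons 0 genes passed under every setting run.

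A replicate block gave 0 mitochondrial calls in experiment 1, between depleted and untreated libraries of experiment 2 and in culture, as did the fits without it. Same-numbered libraries correlated at -0.04 to 0.05 in experiment 1, and at -0.04 to 0.23 in culture, where the others correlated at -0.26 to 0.13. In experiment 2 they correlated at -0.12 and the others at 0.12. With 2 libraries per group these values must mirror each other, so they cannot show pairing. The main fits did not pair libraries, and the values do not settle whether those of culture were paired. Over all genes the block moved calls to 150, against 40, in experiment 2 and to 448, against 267, in culture. No paired analysis was possible for the toxin control because it shares too few numbers with the other groups.

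Depth limited the tRNA genes, with 49 to 125 reads in all per library of experiment 1.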
